A study of Mus musculus with 18 samples.

Results

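The collagen and laminin genes are the rows of the expression table whose symbol is *Col*, a number, *a* and a number, or *Lama*, *Lamb* or *Lamc* followed by a number only. This rule used the symbol and no measured value. It took 55 of 18659 genes, 44 collagen chains and 11 laminin chains. All were measured by RNA-seq of rRNA-depleted RNA from E14 mouse embryonic stem cells (mESCs) grown in serum (FCS) with LIF, an established line that the study plated on gelatin, itself a collagen product. The groups differed only in what was transfected for 24 h. Control cells received scrambled siRNA (scr, sets 1, 2 and 3), luciferase siRNA (luciferase, set 3) or nothing (untreated, set 2). *Stag1*, which encodes a subunit of the cohesin complex, was targeted with a commercial pool (SP, sets 1, 2 and 3), with siRNAs to the 3′ end of the transcript (3p), with a single custom siRNA to the 5′ end (5p) or with an enzymatically prepared siRNA against an alternative 5′ start of the transcript (SATS). The 3p, 5p and SATS KDs were in sets 2 and 3, with 1 library of each a set, and set 1 held 3 SP libraries, named 1a, 1b and 1c. The labels name no engineered allele and no separate clones, and all libraries share the serum culture. The p-values therefore measure the spread between these libraries, which may be technical. Where the set is in the model, as a block or as the difference tested, they measure only the spread left after it.

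Collagens are secreted trimers of alpha chains. The fibrillar types (I, II, III, V, XI) build fibres, type IV builds the network of the basement membrane, type VII anchors it and type XVIII is a heparan sulfate proteoglycan within it. Laminins are trimers of 1 alpha, 1 beta and 1 gamma chain, and they start basement membrane assembly at the cell surface. Early mouse embryos and mESCs are known for laminins built on the beta 1 and gamma 1 chains, paired with alpha 1 or alpha 5, and for type IV collagen, both of which the primitive and parietal endoderm secrete in large amounts. Fibroblasts are the textbook source of type I and type III collagen.

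The libraries held 9023224 to 14040830 reads on genes in set 1 and 32137666 to 45660840 in sets 2 and 3. *Rn45s*, the rRNA precursor, took 69.2% to 79.1% of reads in set 1 and 14.7% to 23.9% in the others. A single read was worth 3.22 to 8.05 normalised counts in set 1 and 0.353 to 0.479 in sets 2 and 3, so 3 reads, the smallest level taken as detected, stood for 9.65 to 24.2 and 1.06 to 1.44 normalised counts. *Stag1* stood at 17.3% to 32.8% of scr in the SP, 3p and 5p libraries and at 49.7% and 50.5% in the SATS libraries. The 6 pluripotent markers (*Pou5f1*, *Sox2*, *Nanog*, *Zfp42*, *Esrrb* and *Utf1*) summed to 18223 to 45370 normalised counts and none was at 0 in any library. Collagen and laminin genes together took 0.202% to 0.243% of the reads outside *Rn45s* in set 1, 0.389% to 0.477% in set 2 and 0.261% to 0.313% in set 3. Between 10 and 17 members were at 0 in the libraries of set 1, against 1 to 3 in the other sets.

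A few basement membrane chains carried most of the signal. Levels are compared between genes only per kb of exon, as the mean over the 10 scr, SP, 3p, 5p and SATS libraries of sets 2 and 3. *Col18a1* had the highest level, 1146 normalised counts per kb. The alpha 5 chain *Lama5* had 887 per kb, the gamma 1 chain *Lamc1* 802 and the beta 1 chain *Lamb1* 471. These 4 genes held 58.6% to 61.0% of the summed normalised counts of all members in those libraries of set 2 and 78.2% to 80.2% in set 3. The type IV chains followed, with 345 per kb for *Col4a1* and 274 for *Col4a2*. The fibrillar chain *Col5a1* had 260 per kb and *Col1a1* 188, and lower still were the laminin chains *Lama1* (113) and *Lamb2* (91.5) and the anchoring fibril chain *Col7a1* (62.6). The order from *Col4a1* to *Col1a1* rests on set 2, since these chains differed 2.73-fold to 7.94-fold between the sets. So does the place of *Col1a1* above *Lama1* and *Lamb2*, which differed 2.12-fold and 1.49-fold.

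**Figure D1:**
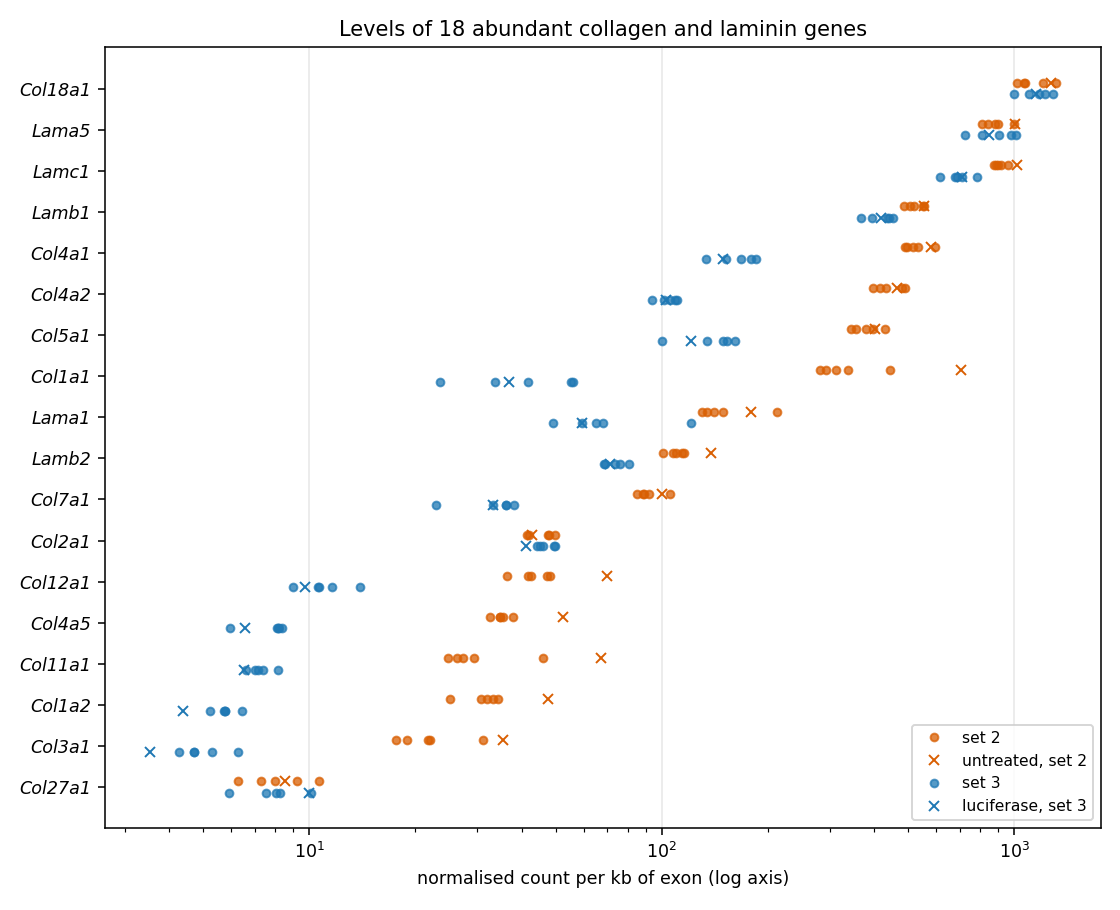
Normalised count per kb of exon (log axis) of 18 members with a mean of at least 100, for the 5 siRNA groups of set 2 and set 3 (circles) and their untreated or luciferase library (crosses). *Col18a1* and *Lama5* overlap between the sets, and *Col1a1* separates furthest, with 188 per kb as the mean of both.

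The other members were low. Of the 55, 19 had a mean of at least 100 normalised counts (not per kb), and 36 were below it. *Col10a1*, the collagen of hypertrophic cartilage, had 0 reads in all 16 libraries. *Lama2*, the laminin alpha chain of muscle, had a mean of 9.98, and the epithelial chains *Lama3* and *Lamb3* had 78.2 and 93.8. *Lama4*, the alpha chain of vessel walls, had 59.2. Of the kidney and eye chains of type IV, *Col4a3* and *Col4a4* had 4.23 and 3.76, and *Col4a5* had 144 with its X-linked neighbour *Col4a6* at 30.3. *Col2a1*, the cartilage fibril chain, was among the steady members of sets 2 and 3, at 382 to 460 normalised counts in set 2 and 409 to 459 in set 3.

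*Col4a1* and *Col4a2* lie head to head on chromosome 8 and were read together here, so their shared start is shown. *Col4a1* (ENSMUSG00000031502.11, GRCm38, chr8:11198423-11312826, minus strand) and *Col4a2* (ENSMUSG00000031503.13, chr8:11312805-11449287, plus strand) overlap by 22 bases at chr8:11312805-11312826, inside the first exon of each. In RefSeq's promoter table (GRCm38.p6) these bases read, 5′ to 3′ on the strand of each gene and with the shared bases in capitals:
Col4a2: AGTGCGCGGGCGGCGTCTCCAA
Col4a1: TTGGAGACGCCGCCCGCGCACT
The table gave 44 promoter windows for 40 members. Within the 250 bases before the start, CCAAT (or ATTGG on the other strand) stood in 14 of the 44 windows (31.8%) and in 33.8% of all 32851 windows, and TATAAA (or TTTATA) stood in 5 (11.4%) against 12.4%. The 150 bases before the starts of *Col3a1* and *Col11a1*, members that differed more than 4-fold between the sets, are shown for the letters found there. In *Col3a1* (chr1:45311388-45311537, plus strand) the capitals mark TATAAA, and in *Col11a1* (chr3:114030390-114030539, plus strand) they mark ATTGG:
Col3a1: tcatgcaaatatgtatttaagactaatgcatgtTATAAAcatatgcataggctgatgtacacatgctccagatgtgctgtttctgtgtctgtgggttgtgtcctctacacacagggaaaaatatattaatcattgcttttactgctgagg
Col11a1: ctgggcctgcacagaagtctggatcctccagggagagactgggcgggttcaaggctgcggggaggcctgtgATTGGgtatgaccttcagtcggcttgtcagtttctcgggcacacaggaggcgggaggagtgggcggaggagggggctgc

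The replicate set was the largest difference among the members. Fitted over the 5 siRNA groups with the siRNA as a covariate, 32 of 53 members were lower in set 3 than in set 2 and 0 were higher (limma, adjusted p under 0.05). Of all 16490 genes, 27.4% were called lower and 51.6% were called in either direction. Each set is 1 batch, so these p-values treat its 5 libraries as replicates and do not measure the spread between batches. The median log2 fold change of the members was -0.58, against -0.01 over all genes. edgeR called 31 members lower and DESeq2 29, and with each library left out in turn 29 to 31 were lower and up to 2 higher. The 32 members had a negative fold in every fit run. Of 18 fits, the low *Col6a2* was called in only 5, *Col23a1* and *Lamc3* in 11 and *Col20a1* in 16. The 5 libraries of set 3 all lay below the 5 of set 2 for 24 of 53 members, and for 16.3% of all genes. In bulk RNA, fewer cells of a type and less RNA per cell cannot be told apart.

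*Col1a1* (ENSMUSG00000001506.10, chr11:94936224-94953042), a chain of type I collagen, differed most. It had 2223 normalised counts in scr, 2044 in SP, 1922 in 3p, 1849 in 5p and 2907 in SATS of set 2. In set 3 the same groups had 367, 221, 274, 155 and 364. The sets did not overlap, and the fitted log2 fold change was -3.04 (SE 0.10, limma adjusted p = 8.2e-11). Its partner chain *Col1a2* ranged from 311 to 427 in set 2 and from 64.8 to 80.2 in set 3 (-2.40, SE 0.08). *Col3a1* ranged from 173 to 306 and from 41.9 to 61.5 (-2.10, SE 0.08). *Col8a1*, a short chain network collagen, had 68.5 to 127 and 10.1 to 13.7 (-2.81, SE 0.12), and *Col6a1*, a beaded filament chain, had 49.5 to 77.8 and 8.81 to 14.8 (-2.25, SE 0.12). All 5 are known products of fibroblasts or smooth muscle, but chains of the same classes did not all fall as far. The fibrillar chain *Col5a2* had 28.3 to 39.6 normalised counts in set 2 and 28.2 to 48.0 in set 3. *Col6a2*, a beaded filament chain, had 17.0 to 27.2 and 12.8 to 20.8.

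Type IV collagen was lower in set 3 as well. *Col4a2* had 2639 normalised counts in scr, 3235 in SP, 2762 in 3p, 3182 in 5p and 2870 in SATS of set 2, and 672, 730, 721, 619 and 701 in set 3 (log2 fold change -2.09, SE 0.06). *Col4a1* had 3705, 4446, 3974, 3859 and 3653 in set 2, and 1252, 1377, 1337, 996 and 1138 in set 3 (-1.69, SE 0.06). Both chains were lower in all 5 groups of set 3, and *Col4a2* more so. Per kb, the ratio of *Col4a1* to *Col4a2* was 1.08 to 1.28 in set 2 and 1.43 to 1.67 in set 3. *Col4a5* was lower in set 3 (-2.16, SE 0.09), and so were the low chains *Col4a6* (-1.30, SE 0.15) and *Col4a3* (-1.37, SE 0.25). *Col4a4*, the sixth chain, had -0.09 (SE 0.28, adjusted p = 0.82).

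Among the other abundant collagens, *Col11a1* (-2.03, SE 0.11), *Col12a1* (-1.95, SE 0.11), *Col7a1* (-1.48, SE 0.08) and *Col5a1* (-1.46, SE 0.07) were lower in set 3. *Col18a1* had 7131 to 9211 normalised counts in set 2 and 7021 to 9022 in set 3 (log2 fold change 0.03, SE 0.05), *Col2a1* had 0.04 (SE 0.06) and *Col27a1* -0.05 (SE 0.09), so these 3 chains showed no difference past the test. The low members lower in set 3 were *Col5a3*, *Col11a2*, *Col9a2*, *Col16a1*, *Col20a1*, *Col22a1*, *Col23a1*, *Col6a3*, *Col6a4* and, in few fits, *Col6a2*. Their log2 fold changes lay between -1.56 (*Col6a3*) and -0.39 (*Col6a2*). Of the fibrillar collagens 7 of 11 were lower, of type IV chains 5 of 6, and of the fibril-associated (FACIT) collagens 5 of 9. Of the beaded filament chains 4 of 6 were lower, of the transmembrane collagens 1 of 4, and of the class of *Col18a1* 0 of 2. Of all genes 27.4% were called lower.

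The abundant laminin chains *Lamc1*, *Lamb1* and *Lama5* moved less than *Col4a1* and *Col4a2*. *Lamc1* had 7229 to 7966 normalised counts in set 2 and 5101 to 6471 in set 3 (log2 fold change -0.39, SE 0.05), and *Lamb1* had 4819 to 5506 and 3644 to 4500.1 (-0.33, SE 0.06). *Lama5* had 9231 to 11364 and 8271 to 11507 (-0.01, SE 0.06). *Lamb2* (-0.58, SE 0.05) and *Lama1* (-1.13, SE 0.08) were lower in set 3, and so were the low *Lama3*, *Lamb3* and *Lamc3*. *Lama2*, *Lama4* and *Lama5* were not called. As a share of the summed normalised counts of all members, laminins made up 50.9% to 54.5% in set 2 and 61.0% to 64.1% in set 3.

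**Figure D2:**
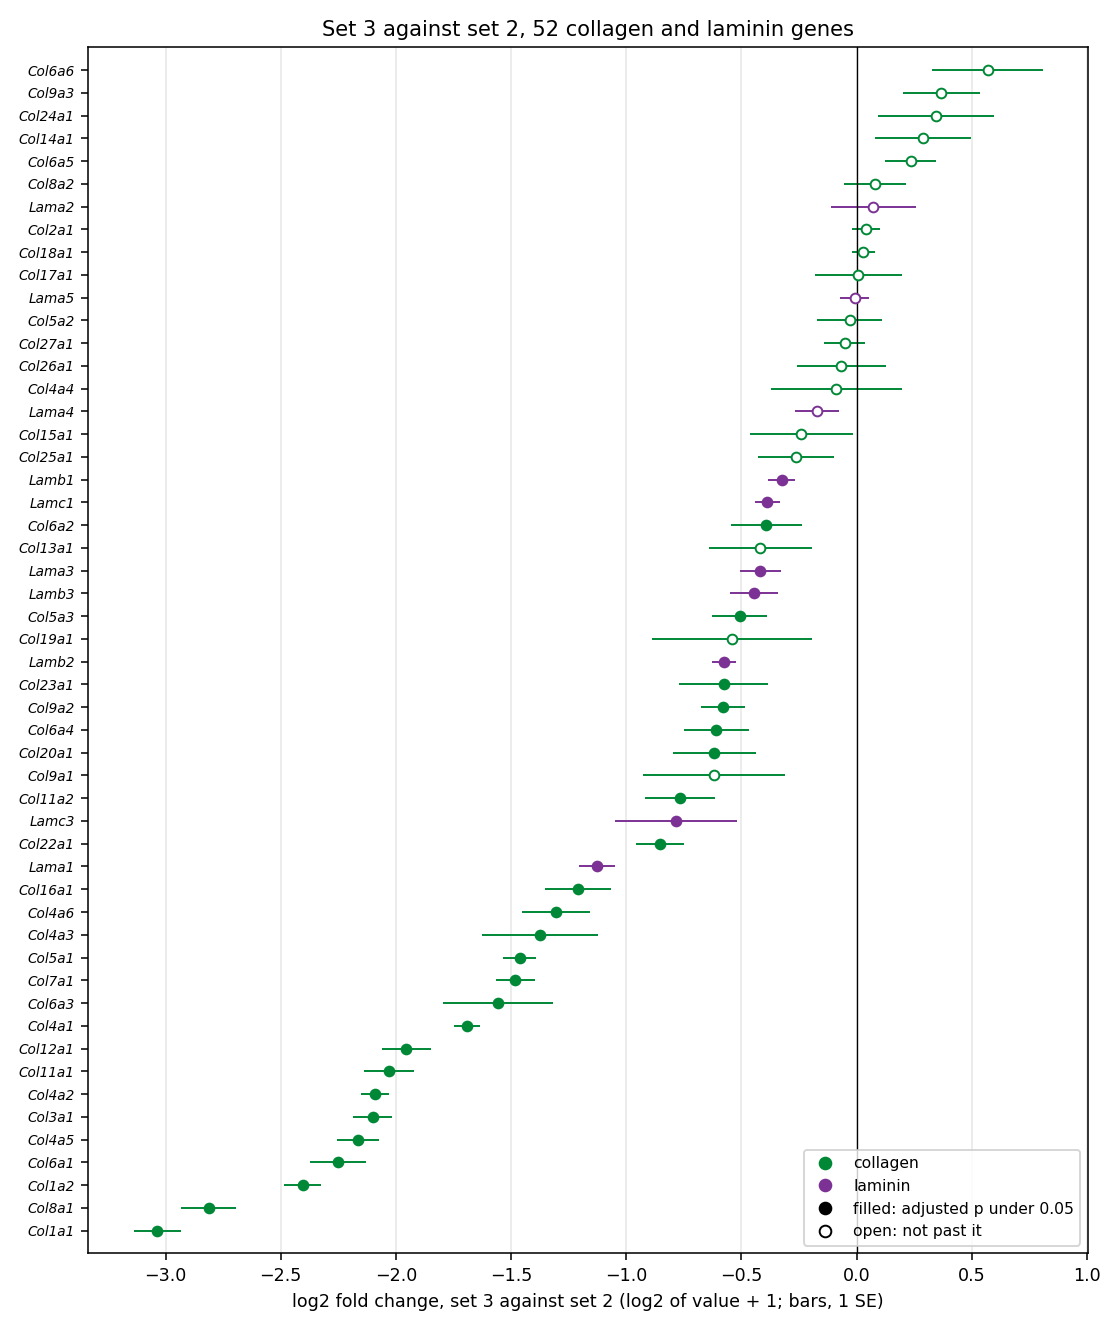
Log2 fold change of set 3 against set 2 for 52 of the 53 members tested, with 1 SE, fitted by limma over the 5 siRNA groups. Filled points passed an adjusted p of 0.05, and all 31 of those drawn lie below 0, from *Col1a1* at -3.04 to *Lamb1* at -0.33.

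Markers of other cell types moved with the set as well. The 10 fibroblast markers summed to 11443 to 16599 normalised counts in set 2 and 3468 to 5487 in set 3. *Acta2* and *Tagln*, contractile genes that smooth muscle and spread cells also use, made up most of both sums, with *Tagln* at 7534 to 9341 and 2641 to 4256. *Postn* (44.1 to 66.3 against 4.63 to 7.05) and *Pdgfrb* (69.4 to 93.5 against 22.8 to 42.6) were low in both sets, and *Dcn* and *Lum*, matrix products of fibroblasts, did not exceed 6.29 and 1.44. Of all genes 27.4% were called lower in set 3 and 51.6% in either direction. Of the 9 fibroblast markers tested 7 were lower in set 3 and 0 higher, and of 6 trophoblast markers 5 and 0. Of 12 primitive and parietal endoderm markers 4 were lower and 2 higher, and of 6 pluripotent markers 4 and 0. The part of these cells in the difference between the sets was not tested.

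The chain partners kept unequal levels within a set. Per kb, *Lama5* stood at 4.15 to 6.68 times *Lama1* in set 2 and at 5.99 to 17.0 times in set 3, with the lowest ratio of each set in the 5p library. *Lamb1* stood at 0.54 to 0.60 times *Lamc1* in set 2 and 0.56 to 0.64 in set 3. *Col1a1* stood at 9.17 to 13.5 times *Col1a2* in set 2 and 4.52 to 9.78 times in set 3. Exon length is the union of all annotated exons, so a ratio per kb depends on which transcripts are used.

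**Figure D3:**
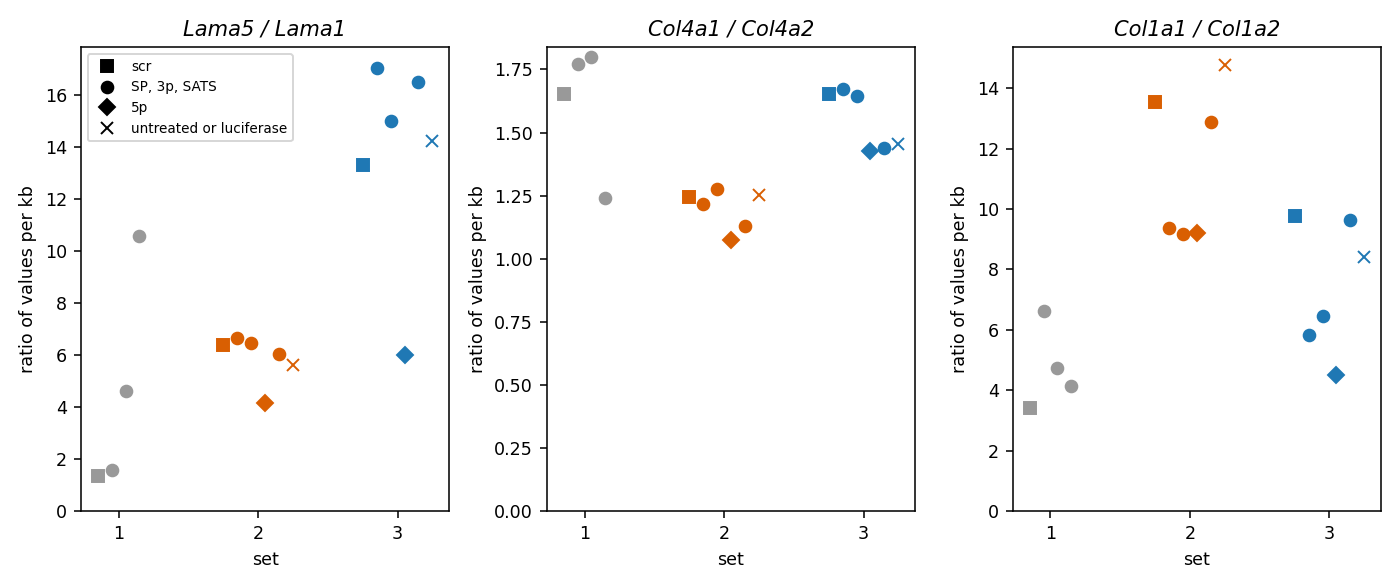
Ratio of normalised counts per kb of exon for *Lama5* over *Lama1*, *Col4a1* over *Col4a2* and *Col1a1* over *Col1a2* in each library, by set. Squares are scr, diamonds 5p, circles the other siRNAs to *Stag1* and crosses untreated or luciferase cells. *Lama5* over *Lama1* is lowest in the 5p libraries of sets 2 and 3 (4.15 and 5.99).

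The comparison of each siRNA with scr asks whether loss of *Stag1*, or of one end of its transcript, changes these genes. Without the set in the model, 0 members passed in any of the 6 comparisons. Few genes passed at all, 0% of 15970 for SP over 3 sets, 0.00606% of 16490 for SP over sets 2 and 3, 0.00606% for 3p, 0.0121% for 5p, 0% for SATS and 0% for 5p against 3p. At an unadjusted p under 0.05 the members counted 0, 0, 0, 0, 3 and 1 in that order, and all genes 84, 410, 286, 598, 650 and 674. edgeR and DESeq2 called 0 members in each of the 6 as well. Since libraries of the same set deviated together, the set was also fitted as a replicate block.

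With the block, 2 of 53 members passed for 5p against scr, *Lama1* upward and *Col1a1* downward, where 2.37% of all genes did. For 5p against 3p 2 of 53 passed, *Lama1* and *Col3a1*, both upward, with 3.26% of all genes. No member passed for SP over 3 sets (0 of 51, 0% of genes), SP over sets 2 and 3 (0.746% of genes), 3p (0.285%) or SATS (2.64%), each of the last with 53 members tested, and edgeR and DESeq2 with the block called 0 in these as well. The counts at an unadjusted p under 0.05 with the block were 1, 7, 2, 10, 8 and 13 members for SP over 3 sets, SP over sets 2 and 3, 3p, 5p, SATS and 5p against 3p, where 5.85%, 12.5%, 10.4%, 15.7%, 18.8% and 15.8% of all genes passed. A count of 2 in 53 lies near these shares of all genes and is no result about the list, so the 3 genes are described singly.

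*Lama1* (ENSMUSG00000032796.8, GRCm38, chr17:67697259-67822647, plus strand) encodes the laminin alpha 1 chain of the embryonic basement membrane. In set 2 it had 1365 normalised counts in scr, 1447 in SP, 1259 in 3p, 2059 in 5p, 1299.8 in SATS and 1730.2 in untreated cells. In set 3 it had 659 in scr, 574 in SP, 631 in 3p, 1174 in 5p, 475 in SATS and 577 in luciferase. The 5p library was the highest of its set in both, above every control, and the other siRNAs stayed within 72.1% to 106% of scr. The 5p libraries stood at 151% and 178% of scr. With the replicate block *Lama1* rose by 0.71 on the log2 scale (SE 0.12, limma adjusted p = 0.0069), and against 3p by 0.80 (SE 0.12, adjusted p = 0.0027). Without the block the same folds had an SE of 0.66 (adjusted p of 1.00 for both). For SP over sets 2 and 3, 3p and SATS the blocked log2 fold changes were -0.06, -0.09 and -0.27 (each SE 0.12), none past the threshold.

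The call for *Lama1* depended on single libraries. Among the 8 fits with the block it passed in 5 for 5p against scr. It was lost without the 5p library of set 3 (adjusted p = 0.16), without the scr library of set 2 (0.15) and without the scr library of set 3 (0.13), and all 8 fits were positive, from 0.51 to 0.91. Against 3p it passed in 6 of 7 fits and was lost without the 5p library of set 3 (adjusted p = 0.073). edgeR (adjusted p = 0.0070) and DESeq2 (1.2e-05) with the block called it for 5p against scr. The reads behind these values were 4315 and 2537 in the 5p libraries and 3255 and 1662 in scr, so counting error was small beside the spread between sets.

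Other basement membrane and endoderm genes were read beside it. *Nid1*, the nidogen that links laminin to type IV collagen, had 2454 normalised counts in scr, 2118 in 3p and 3095 in 5p of set 2, and 1161, 967 and 1528 in set 3. It rose in 5p against 3p by 0.60 (SE 0.10, limma with the block, adjusted p = 0.0033). Of the 20 other basement membrane proteins it was the only 1 called there, where 3.26% of all genes were. Only 8 of the 20 had a positive log2 fold change (median -0.07), where 53.2% of all genes did. The 12 primitive and parietal endoderm markers summed to 523 to 664 normalised counts in set 2, highest in 5p and higher still in untreated cells (682), and to 294 to 406 in set 3, again highest in 5p. None of the 12 was called for 5p against scr or against 3p. In 5p 11 of them had a positive log2 fold change against scr (median 0.27), where 52.5% of all genes did. The markers were also raised in SP over sets 2 and 3 (9 positive, median 0.29) and 3p (9, 0.19), but not in SATS (6, -0.01). *Sox17* had 2.82 to 8.33 and *Gata6* 5.78 to 15.3 in these libraries, both low. The part of such cells in the level of *Lama1* was not tested.

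*Col1a1* was lower in 5p than in scr in both sets, at 83.2% and 42.1%. With the replicate block it fell by 0.75 on the log2 scale (SE 0.16, limma adjusted p = 0.026). The distance lay mostly in set 3, and there the SP library (60.1%), the 3p library (74.5%) and the luciferase library (65.9%), which carries no siRNA to *Stag1*, were also below scr. In set 2 the untreated library stood at 208% of scr. The blocked log2 fold changes for SP over sets 2 and 3, 3p and SATS were -0.43, -0.32 and 0.19 (each SE 0.16), none past the threshold. Fitted on the scr and SP libraries of sets 2 and 3 alone, *Col1a1* fell in SP with the same fold (limma with the block, adjusted p = 0.0018). So few libraries leave little to estimate the spread from, and that fit called 509 of 15274 genes. In the blocked fit over 10 libraries the same fold had a limma adjusted p of 0.28. None of 9 fibroblast markers was called for 5p against scr. DESeq2 with the block did not call it for 5p (adjusted p = 0.086), and it was lost without the 5p library of set 3 (0.33) or the scr library of set 3 (0.39). *Col1a2*, its partner chain, stood at 123% and 91.2% of scr in 5p.

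*Col3a1* had 213 normalised counts in scr, 186 in SP, 173 in 3p, 306 in 5p, 216 in SATS and 348 in untreated cells of set 2. In set 3 it had 52.0, 41.9, 46.2, 61.5 and 46.2 in the siRNA groups and 34.6 in luciferase. The 5p library was above the other siRNAs in both sets, but below untreated cells in set 2. Against 3p it rose by 0.61 (SE 0.13, limma with the replicate block, adjusted p = 0.024), and against scr the log2 fold change was 0.38 (SE 0.13, adjusted p = 0.18). Leaving out the 5p library of set 2 (adjusted p = 0.15), the 5p library of set 3 (0.078) or the 3p library of set 2 (0.18) ended the call against 3p.

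**Figure D4:**
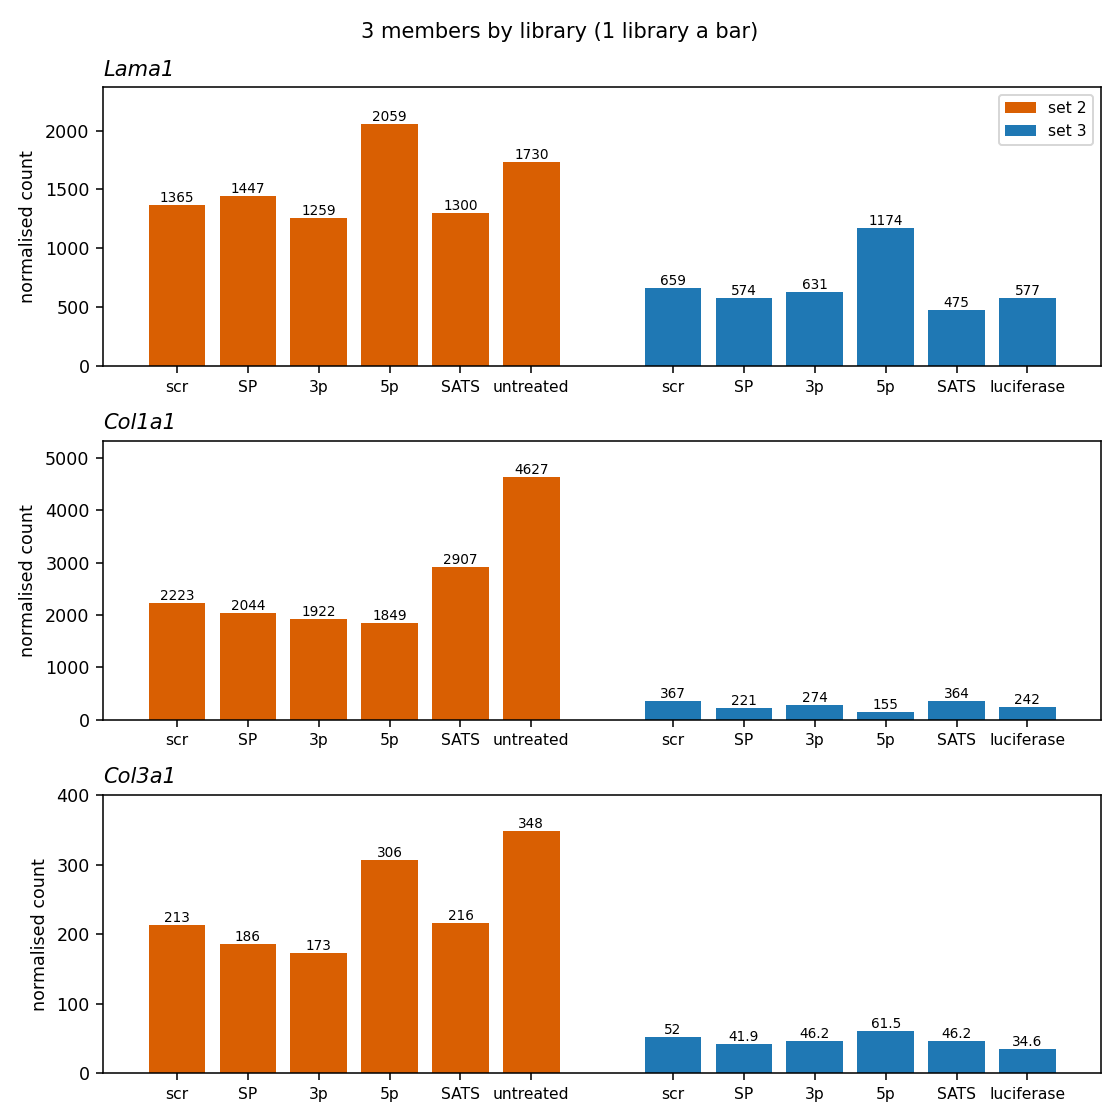
Normalised counts of *Lama1*, *Col1a1* and *Col3a1* in each library of set 2 and set 3, 1 library a bar. The 5p bars of *Lama1* (2059 and 1174) are the highest of their set, while the highest bar of *Col1a1* and of *Col3a1* is untreated cells (4627 and 348).

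For the list as a whole, the medians of the members' log2 fold changes were 0.15 for SP over 3 sets (0.0046 with SP 1a alone for set 1), 0.14 for SP over sets 2 and 3, 0.01 for 3p, 0.03 for 5p, -0.07 for SATS and 0.01 for 5p against 3p. Over all genes they were 0.01, 0.00, 0.00, 0.01, 0.00 and 0.02. Set by set, SP gave a member median of 0.40 in set 1, with 0.12 and 0.05 in the later sets, and that of 5p was 0.13 in set 2 and -0.10 in set 3. The value of set 1 includes low members, and 17 members were at 0 in its scr library. There, 18 members with a mean of at least 100 had medians of 78.7%, 70.2% and 163% of scr in SP 1a, 1b and 1c. Of the 19 members with a mean of at least 100, 12 were above scr and 4 below it in both SP libraries of sets 2 and 3, where 29.1% and 30.2% of the 9769 genes of that level were. The 12 included *Col18a1* (123% and 105% of scr), *Lama5* (111% in both), *Col4a1* (120.0% and 110.0%) and *Col4a2* (123% and 109%). None of them passed the test with the block. The numbers above and below in both sets were 8 and 5 for 3p, 4 and 5 for 5p and 5 and 7 for SATS. The shares of the 9769 genes were 25.7% and 30.9%, 32.7% and 34.4%, and 36.7% and 35.3%, and the counts of 4 and 5 in 19 for 5p lay below them.

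The SP libraries of set 1 gave another picture, with far fewer reads. *Lama1* had 4808 normalised counts in scr (718 reads), 3074 in SP 1a (654), 1457 in 1b (453) and 693 in 1c (86), or 63.9%, 30.3% and 14.4% of scr. All 3 SP libraries were below scr, and they were far from each other. Over 3 sets the log2 fold change was -0.53 (SE 0.28 with the replicate block, limma adjusted p = 0.76). *Col4a1* had 1574 in scr and 1203, 418 and 676 in SP 1a, 1b and 1c, and *Col4a2* had 844 and 602, 206 and 483. In sets 2 and 3 both genes were above scr in SP, so the sets lay on opposite sides of scr.

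The primitive and parietal endoderm markers moved with these genes in set 1. Their sum was 1353 normalised counts in scr, 1053 in SP 1a, 325 in 1b and 338 in 1c. *Cubn*, an endocytic receptor of visceral endoderm, had 676, 503, 125 and 32.2, and *Gata6* had 100.4, 65.8, 9.65 and 8.05. *Nid1*, which is not one of these markers, had 3797, 1885, 1518 and 910. With 3 reads worth 9.65 in 1b and 24.2 in 1c, *Gata6* lay at that floor in 1b and under it in 1c. *Sox17* was at 0 in 1c. The sum of the 6 pluripotent markers fell in the same libraries, from 45369.5 in scr to 37216.5, 32183 and 25376 in SP 1a, 1b and 1c. In sets 2 and 3 *Cubn* did not exceed 48.2 and *Gata6* 15.3 in any library. The part of such cells in the levels of set 1 was not tested.

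The SP 1c library stood apart from 1a and 1b for the fibrillar and anchoring collagens. *Col5a1* had 194 normalised counts in scr (29 reads), 197 in 1a, 180.1 in 1b and 773 in 1c (96 reads). *Col7a1* had 40.2 (6 reads), 47.0, 67.5 and 411 (51 reads), and *Col1a1* had 60.3 (9 reads), 32.9, 16.1 and 282 (35 reads). *Col12a1* had 2 reads in scr and 14 in 1c, *Col1a2* 5 and 16 and *Col4a5* 3 and 9, too few for a percentage of scr to be read. The fibroblast marker sum was 442 in scr, 315 in 1a, 267 in 1b and 1619 in 1c, with *Tagln* at 1152 in 1c and at most 141 in the other 3. *Twist2* and *Prrx1* were at 0 in all 4. The part of these cells was not tested. *Col3a1*, at 0 or 1 read in each library of set 1, was not detected at this depth.

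**Figure D5:**
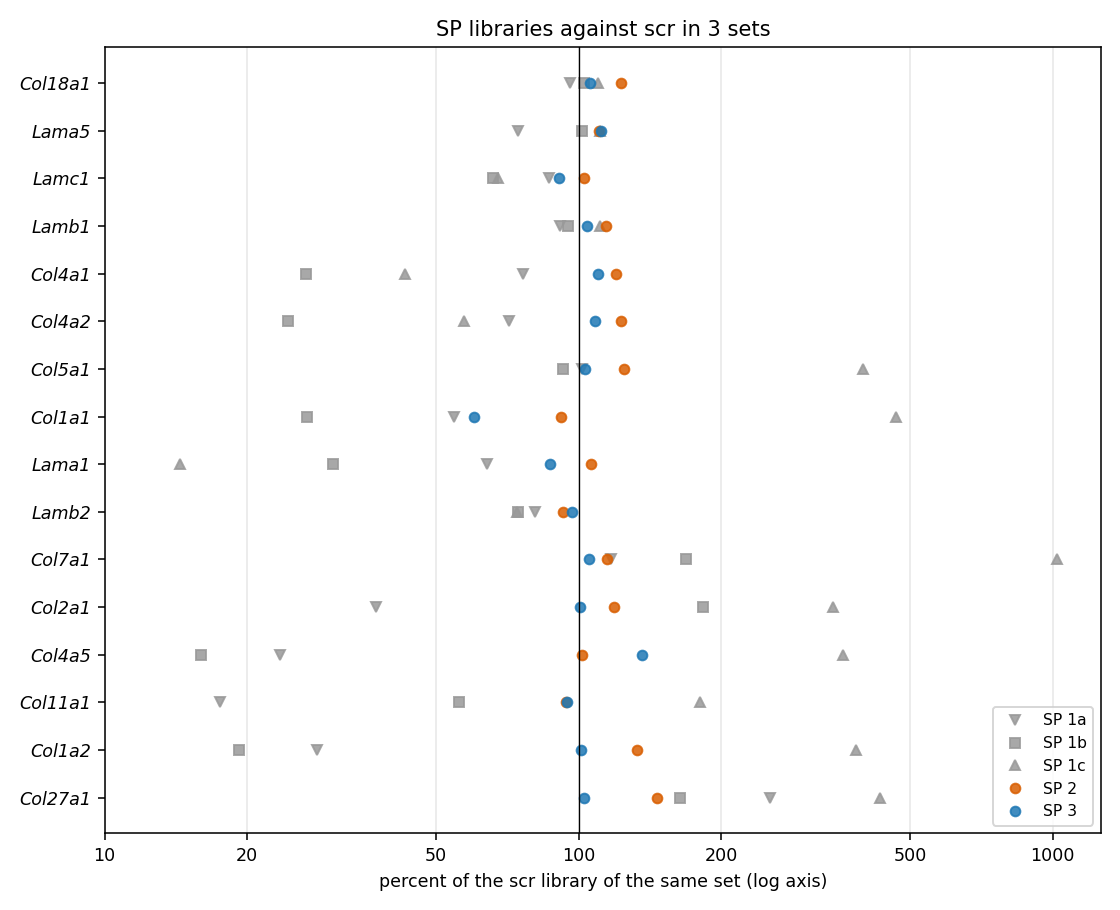
SP as a percentage of the scr library of its set (log axis) for 16 abundant members with at least 3 reads in scr of set 1. Triangles and squares are SP 1a, 1b and 1c of set 1, and circles are sets 2 and 3. *Lama1* in set 1 lies at 63.9%, 30.3% and 14.4%, and *Col7a1* in SP 1c lies at 1022%, while sets 2 and 3 lie between 60.1% (*Col1a1*) and 146% (*Col27a1*).

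The control libraries show how far the members moved with no siRNA to *Stag1*. In luciferase cells of set 3, the 19 abundant members lay between 65.9% (*Col1a1*) and 124% (*Col27a1*) of scr, with 3 below 80% and 0 above 125%, where 0.686% and 0.860% of the 9769 genes of that level were. In untreated cells of set 2, 7 of 19 exceeded 125% and 0 were below 80%, where 1.68% and 1.87% of the 9769 genes of that level did. *Col11a1* stood at 257% of scr there (859 against 335 normalised counts), *Col1a1* at 208%, *Col1a2* at 191% and *Col3a1* at 164%. Those cells were also the highest of set 2 for *Tagln* (9719), but not for the sum of the fibroblast markers (15805, against 16599 in SATS). Each of these is 1 library against 1, with no replicate and no test. Among KD libraries, 5p in set 3 had 5 of 19 members below 80% of scr and 2 above 125%, with *Col7a1* at 63.2% and *Col5a1* at 67.5%, against 96.9% and 103% in 5p of set 2. Of the 9769 genes, 8.20% and 4.88% were below and above these bounds in 5p of set 3.

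The proteins that make, bind and cut these chains were read in the same fits. With the replicate block, 5p against scr called 1 of 21 collagen and laminin receptors, the integrin beta 1 chain *Itgb1*, which fell by 0.59 (SE 0.08, limma adjusted p = 0.0021). It had 7610 normalised counts in scr and 5235 in 5p of set 2, and 6411 and 4141 in set 3. Of 18 proteases and inhibitors 2 rose, the gelatinase *Mmp2* (0.51, SE 0.09) and its inhibitor *Reck* (0.74, SE 0.12). Of 30 genes for collagen synthesis and crosslinking 0 rose and 2 fell, the procollagen proteinase *Tll1* and the lysyl oxidase *Loxl4*. Of 16 other matrix proteins 0 rose and 2 fell, *Thbs1* and *Ltbp1*, and of 20 other basement membrane proteins none was called. Against 3p, 5p called *Itgb1*, *Itgav*, *Thbs1*, *Ltbp1* and *Tll1* lower and *Nid1*, *Cd44*, *Mmp2* and *Spp1* higher. Of the cell type markers, *Tfap2c* of trophoblast fell in 5p, *Acta2* and *Krt7* rose in SATS and no pluripotent marker was called for any siRNA. Between sets, 18 of the 30 synthesis genes were lower in set 3 and 4 higher, among the lower the collagen chaperone *Serpinh1* (2812 to 3173 against 873 to 1183), and 13 of 21 receptors were lower with 0 higher, beside the 27.4% of all genes called lower.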

How the data were processed

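RNA-seq of 16 serum-grown libraries in 3 sets was analysed, and 2 further samples, grown in 2i medium, are not used here. The authors aligned 75 bp reads with HISAT2 to mm10, assigned them to genes with featureCounts and scaled the counts by DESeq2 size factors (version 1.14.1), which is the normalised signal they deposited. Dividing by the value of 1 read gave whole reads for 100% of values (tolerance 0.01), and depth was taken from these. Intervals of counting error would cover reads only, not molecules. Strand use in counting is not given per library, so antisense and overlapping genes cannot be told apart.

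log2(value + 1) was fitted with limma 3.58.1 (trend) in R 4.3.3 where a gene's values summed to 10 or more, over scr and SP of 3 sets (1a, 1b and 1c averaged to 1 sample) or over 10 libraries of sets 2 and 3, with Benjamini-Hochberg adjustment over all genes and a threshold of 0.05. Folds of low genes are understated on this scale. The main fit had no block. The set numbers pair the libraries, since libraries of the same set deviated together from the means of their groups, with correlations of 0.80, 0.82 and 0.77 in the SP comparison and of 0.81 to 0.93 over 10 pairs in the panel, so the fit with the set as replicate block is given beside it. edgeR 4.0.16 and DESeq2 1.42.0 on the recovered reads, other pseudocounts, filters, TMM factors, controls and left-out libraries were alternatives. The fits were tested on simulated data that held no difference between sets, so that test does not cover the spread between sets seen here. Exon lengths and coordinates came from GENCODE for GRCm38, and all 55 members matched.

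Genes named were members with a mean of at least 100 normalised counts over the panel and members called in any comparison, and of the other lists those called or most abundant. Other members were chosen after their values were seen. The members and lists were chosen with earlier results of these data known. The authors' table of set 1 alone was not used. A few results on single genes are not reported here.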

Additional observations from a re-analysis of the deposited data

Results flagged for a closer look

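Over the 5 SP libraries, the highest value lay far from the rest for 6 of 19 abundant members, in each case in the SP library of set 2: *Col1a1* (2044 normalised counts), *Col3a1* (186), *Col4a1* (4446), *Col4a2* (3235), *Col12a1* (649) and *Lamb2* (653). Dixon's criterion flags about 1 in 20 groups by chance. The 5 libraries come from 3 sets, and all 6 genes were lower in set 3 than in set 2 in the fit over the 5 siRNA groups. The effect of 5p differed from that of 3p, with the replicate block, for *Lama1* (log2 fold change 0.80) and *Col3a1* (0.61). In SP of set 1, *Col4a1* and *Col4a2* lay below scr in all 3 libraries, with a mean of 48.7% and 51.0% of scr, while both lay above scr in sets 2 and 3. That difference between sets was not tested.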

How the results depend on the processing

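Without the replicate block, pseudocounts, filters, TMM factors, edgeR and DESeq2 left 0 members called for each siRNA. With the replicate block the members called for 5p against scr were 2 (limma), 2 (edgeR) and 1 (DESeq2), and 2 with all control libraries pooled, and for 5p against 3p they were 2, 2 and 3. With pooled controls and the block 1 of 54 members was called for 3p (*Col23a1*) and 3 for SATS (*Col14a1*, *Col25a1* and *Col27a1*). Of 16684 genes, those fits called 219 for 3p and 1785 for SATS, and the one for 5p called 1119. With all libraries kept, the block changed no other call of a member. Leaving out set 1, the block raised the calls from 0 to 1 of 51 for SP over 3 sets (*Col1a1*), where 509 of 15274 genes were called. With each library left out, the counts ranged from 0 to 1 for SP over 3 sets, 0 to 5 for 5p, 0 to 6 for 5p against 3p and 29 to 33 between sets, and were 0 for the others. A mean value of at least 50 left 20 of 26 members lower in set 3 (median -0.86), since fewer genes were tested, and a pseudocount of 10 gave a median of -0.38. The member median moved to 0.039 for SP over sets 2 and 3 and to -0.047 for 3p with pooled controls, and to 0.044 for 3p at a mean of at least 50. For SP over 3 sets it was 0.0046 with 1a alone for set 1, 0.060 with edgeR and 0.059 with DESeq2. The cause was not tested.

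With 1 library left out, taking fits without and with the block together, medians ranged from -0.24 to 0.47 for SP over sets 2 and 3, -0.31 to 0.35 for 3p, -0.29 to 0.38 for 5p, -0.40 to 0.31 for SATS, -0.30 to 0.40 for 5p against 3p, 0.065 to 0.195 for SP over 3 sets and -0.55 to -0.51 between sets. Without the block a lost library leaves the sets unbalanced. The direction turned for *Lama1* in SP over sets 2 and 3 (-0.72 to 0.61), 3p (-0.61 to 0.43) and SATS (-0.996 to 0.454), for *Col1a1* in 5p against scr (-2.54 to 1.03) and 3p (-2.22 to 1.35), and for *Col3a1* in 5p against scr (-0.77 to 1.53) and 3p (-0.54 to 1.76). Depth limits set 1 most, where 3 reads stand for 9.65 to 24.2 normalised counts.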
